A study of Mus musculus with 32 samples.

Results

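‘Igkv1-131’, ‘Igkv1-132’, ‘Igkv1-133’ and ‘Igkv1-135’ are 4 variable (Vκ) segments at the distal end of the mouse Igκ light chain locus. They were chosen by name alone, as the rows of the Igkv1 family whose position numbers run from that of ‘Igkv1-131’ to that of ‘Igkv1-135’, and are 4 of the 112 Vκ segments counted. The libraries are Igκ VJ-seq, in which RNA of rearranged Igκ genes is reverse transcribed from the constant region and the V segment is read together with the allele it came from. All cells were B6/Cast, carrying a C57BL6 (B6) and a Castaneous (Cast) allele of every segment. Clones 3, 4, 8, B52 and E9-3 (E93 in the labels) were pre-B-cell lines, each derived from 1 cell of the bone marrow of F1 female mice aged 8 to 12 weeks, grown with IL-7 on ST2 feeder cells and then deprived of IL-7 for 48 h so that the Igκ genes would rearrange. Clone 4 was also sampled after 12, 24, 36 and 48 h without IL-7. The pool is labelled as cultured pre-B cells, while the methods describe the RNA that did not come from clones as bone marrow cells of a female mouse aged 12 weeks, with no time without IL-7. It is counted below among the 6 libraries at 48 h because the labels list it with them. Each clone, the pool and each time point gave 1 library, so a clone stands for 1 cell's progeny and only clone 4 was read again at 48 h, with nothing said of whether that was another culture. Late passages of clone 3 carry a deletion of Vκ segments on the Cast allele, and whether the cells of this library carried it was not tested. Its library held 80861 Cast reads, of which 2152 were of ‘Igkv1-135’, 558 of ‘Igkv1-133’ and 96 of ‘Igkv1-132’.

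Libraries held between 34291 reads (clone E9-3) and 320951 reads (pool) at 48 h, and between 1174 and 10958 in the time course, where the 12 and 24 h libraries were the smallest. Between 51.2% (clone 3) and 71.8% (clone 4) of the reads of the 48 h libraries were on the B6 allele, and between 76.2% and 84.2% in the time course. Intervals are 95% Wilson intervals. They cover counting error only, since the reads were amplified by PCR and carry no molecular identifiers.

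A developing B cell joins 1 V segment to a J segment, and the joined segment then encodes most of the variable domain of the κ light chain. The RAG recombinase cuts at a recombination signal next to the segment, which consists of a heptamer (CACAGTG in its consensus), a spacer of 12 bases on Vκ segments and a nonamer (ACAAAAACC). Segments in either orientation are used, by deletion or by inversion of the DNA between V and J. In these cells each joint can be made on the B6 or the Cast chromosome, and the RNA shows which.

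In mm10 (GRCm38.p6, with the GENCODE M21 annotation) the 4 genes lie on chromosome 6 over 157 kb, and all are annotated as V genes with a leader exon and a V exon of 313 bases. ‘Igkv1-135’ (ENSMUSG00000096336) lies at chr6:67609713-67610508, ‘Igkv1-133’ (ENSMUSG00000094491) at chr6:67724902-67725661 and ‘Igkv1-132’ (ENSMUSG00000096580) at chr6:67759700-67760413, all on the plus strand, as is Igkj1. ‘Igkv1-131’ (ENSMUSG00000076505) lies at chr6:67766036-67766772 on the minus strand. Their distance to Igkj1 ranges from 2956 kb for ‘Igkv1-131’ to 3112 kb for ‘Igkv1-135’. The recombination signals are shown because the members differ there. They are the B6 reference bases that directly follow each V exon, 5′ to 3′ on the strand of the segment, with the heptamer and the nonamer in capitals and the spacer in lower case.
‘Igkv1-135’, chr6:67610509-67610536, plus strand: CACAGTGattcagacccgaACAAAAACT
‘Igkv1-133’, chr6:67725662-67725689, plus strand: CACAGTGatacagactctaTCAAAAACT
‘Igkv1-132’, chr6:67760414-67760441, plus strand: CACAGTGatacagaccctaTCAAAAACT
‘Igkv1-131’, chr6:67766016-67766035, minus strand: CACAGACcctaACAAAAACT

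‘Igkv1-135’, ‘Igkv1-133’ and ‘Igkv1-132’ have the consensus heptamer and a spacer of 12 bases. Their nonamers differ from ACAAAAACC at 1 base for ‘Igkv1-135’ and at 2 bases for the other two. In ‘Igkv1-131’ the heptamer differs from CACAGTG at 2 bases, and only 4 bases separate it from a nonamer-like stretch. CACAGTG directly followed the V exon, on the segment's own strand, in 92 of the 111 segments found by name in the annotation (82.9%), and ACAAAAACC followed after 12 bases in 36 of them (32.4%). The 5 segments with 0 reads in the 6 libraries at 48 h, ‘Igkv1-131’ among them, were all among the 19 without CACAGTG at this place. When CACAGTG was also accepted up to 2 bases away from the annotated end of the exon, 16 segments were without it, and 11 of these had reads. The octamer ATTTGCAT, a motif of immunoglobulin promoters, was searched on both strands in the 250 bases before the start codon and was found in all 4 members, 98 bases before it, as in 71 of the 98 segments with an annotated start codon (72.4%).

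The V exons themselves are close relatives. ‘Igkv1-135’ and ‘Igkv1-133’ were 96.5% identical (11 of 313 bases differ), ‘Igkv1-132’ and ‘Igkv1-131’ 94.9%, and the pair least alike, ‘Igkv1-135’ and ‘Igkv1-132’, 91.4%. The closest segment outside these 4 with an exon of the same length, Igkv1-35, was 82.1% to 84.7% identical to them. The stretch from base 95 to base 214 of the V exon is given because it holds 20 of the 34 positions at which the 4 exons differ, and capitals mark these positions.
‘Igkv1-135’, chr6:67610290-67610409, plus strand: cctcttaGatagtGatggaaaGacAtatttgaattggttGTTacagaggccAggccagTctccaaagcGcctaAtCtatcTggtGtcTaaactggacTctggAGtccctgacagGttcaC
‘Igkv1-133’, chr6:67725443-67725562, plus strand: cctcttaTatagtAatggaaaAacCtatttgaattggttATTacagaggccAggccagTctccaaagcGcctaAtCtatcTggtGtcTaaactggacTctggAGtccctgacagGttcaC
‘Igkv1-132’, chr6:67760195-67760314, plus strand: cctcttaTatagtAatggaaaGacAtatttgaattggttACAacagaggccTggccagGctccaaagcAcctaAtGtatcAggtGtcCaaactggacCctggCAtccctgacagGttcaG
‘Igkv1-131’, chr6:67766135-67766254, minus strand: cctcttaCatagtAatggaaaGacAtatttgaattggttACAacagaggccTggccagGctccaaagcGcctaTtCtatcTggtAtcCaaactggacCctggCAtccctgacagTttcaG
Reads that cover few of these positions could have been assigned to the wrong member, so how reads were divided among the members is uncertain to that extent. These are B6 sequences, and the Cast sequences of the members were not analysed here.

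‘Igkv1-131’ was listed at 0 reads on both alleles in every library. In the pool this allows a share of up to 0.000935% of reads (3 reads), and in clone E9-3, the smallest library at 48 h, of up to 0.00875%. The other three members were read in all 6 libraries at 48 h and on both alleles. Their summed share was 5.45% of reads in the pool. Among the clones it was lowest in clone 8 (3.12%) and clone B52 (3.45%), 5.30% for clone 4, 7.45% for clone 3 and highest in clone E9-3 (10.3%). ‘Igkv1-135’ held most of these reads in the pool (89.8%) and, with lower shares, in clones 3, 4, B52 and E9-3, whereas in clone 8 it held 38.4% and ‘Igkv1-133’ held 51.2%.

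**Figure D1:**
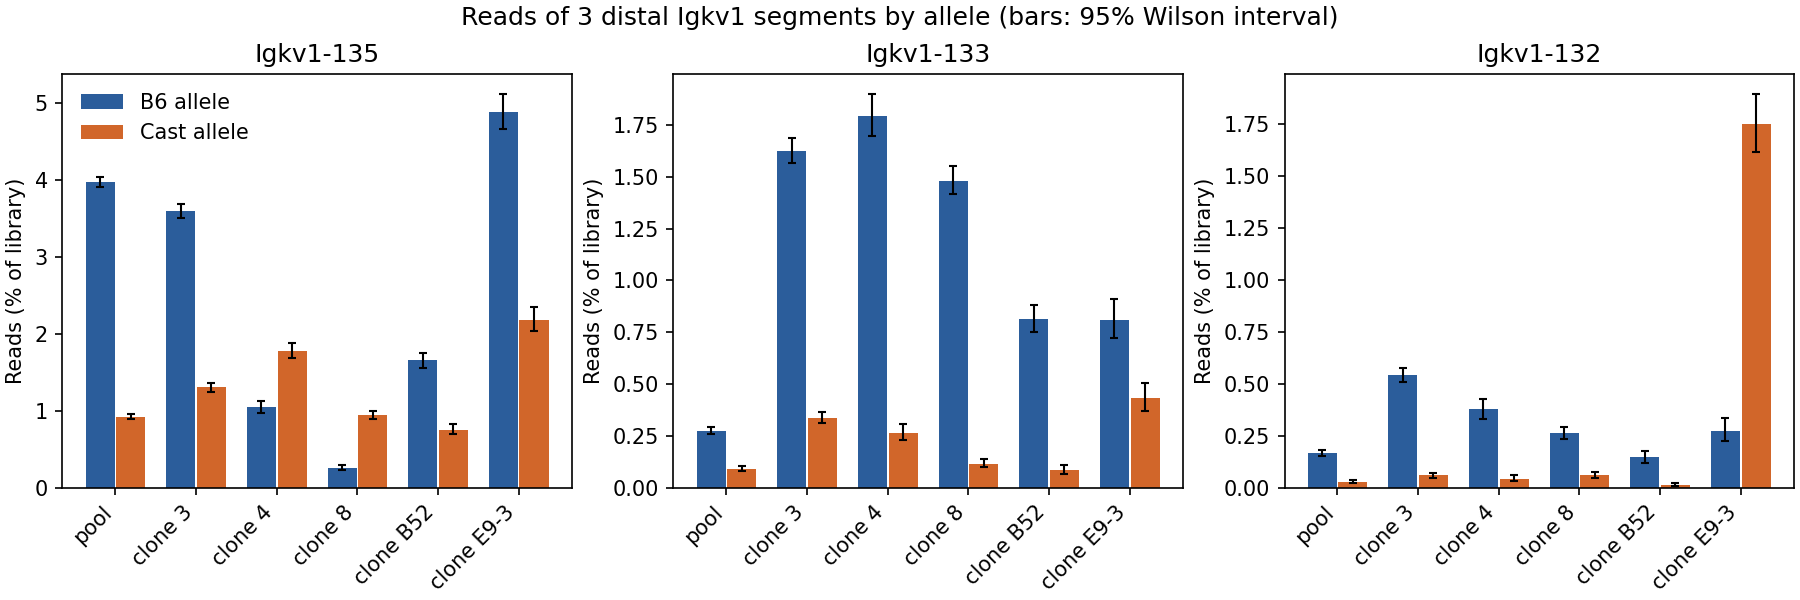
Reads of ‘Igkv1-135’, ‘Igkv1-133’ and ‘Igkv1-132’ on the B6 (blue) and Cast (orange) allele, in percent of all reads of the library, in the pool and the 5 clones; error bars are 95% Wilson intervals and the scale differs between panels. The Cast bar is the taller of a pair for ‘Igkv1-135’ in clones 4 and 8 and for ‘Igkv1-132’ in clone E9-3.

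‘Igkv1-135’ was the most read segment of the pool, and its level differed 5.89-fold between the highest and the lowest clone. It took 7.06% of reads in clone E9-3 and 4.89% in both the pool and clone 3. Lower levels were found for clone 4 (2.82%), clone B52 (2.40%) and clone 8 (1.20%). The pool and clone 3 did not differ beyond their intervals. Clones 4 and B52 differed 1.17-fold, which is less than the 1.34-fold by which the repeated 48 h libraries of clone 4 differed at this segment. Over the 93 segments with at least 10 reads in every clone, the median ratio of the highest to the lowest clone was 5.54, and ‘Igkv1-135’ stood at rank 44.

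The prevailing allele of ‘Igkv1-135’ was not the same in every clone. The B6 allele gave 81.2% of its reads in the pool (12745 of 15700), 73.5% in clone 3 (5953 of 8105), 69.1% in clone E9-3 (1673 of 2421) and 68.7% in clone B52 (1141 of 1661). In clone 4 it gave 36.9% (673 of 1822) and in clone 8 it gave 21.7% (309 of 1426), so that the Cast allele prevailed in these clones although most reads of both libraries were on B6. The intervals of clones E9-3 and B52 overlapped, and those of the other neighbours in this order did not. Reads of ‘Igkv1-135’ on the B6 allele ranged from 0.260% of the library in clone 8 to 4.88% in clone E9-3, an 18.8-fold range, and those on the Cast allele from 0.752% in clone B52 to 2.18% in clone E9-3, a 2.90-fold range. Set against the reads of each allele alone, ‘Igkv1-135’ was the most read B6 segment in the pool (6.92% of B6 reads), clone 3 (7.02%) and clone E9-3 (9.09%). In clone 8 it took 0.413% of B6 reads, at rank 61. On the Cast allele it stayed between rank 3 and rank 15 in the 6 libraries, with 2.16% to 6.29% of Cast reads. A prevailing allele that differed between clones was also seen at 43 of the 93 segments with at least 10 reads in every clone (46.2%).

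‘Igkv1-133’ was read mostly on the B6 allele in all 6 libraries. The B6 allele gave 75.0% of its reads in the pool (881 of 1174), 82.8% in clone 3 (2693 of 3251), 87.2% in clone 4 (1161 of 1332), 92.8% in clone 8 (1764 of 1901), 90.8% in clone B52 (562 of 619) and 65.3% in clone E9-3 (278 of 426). Clones 8, B52 and 4 were the highest and each overlapped its neighbour in this order, and clone E9-3 was lower than the pool beyond the intervals. The share was above that of all reads of the same library in each of the 6. Most reads were on B6 in all 6 libraries at 37 of the 92 segments with at least 10 reads in each of them (40.2%).
The level of ‘Igkv1-133’ was the most even among the members with reads. Its share of reads was 2.06% for clone 4, 1.96% for clone 3 and 1.60% for clone 8. Clones E9-3 (1.24%) and B52 (0.895%) were lower, a 2.30-fold range over the clones, and the pool had 0.366%. Clones 4 and 3 did not differ beyond their intervals. In the pool it stood at rank 60 among the segments, and in the clones between rank 15 and rank 26.

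‘Igkv1-132’ was the least read of these members, except in clone E9-3. It took 0.192% of reads in the pool, and its share among the clones was 0.598% for clone 3, 0.419% for clone 4, 0.323% for clone 8 and 0.155% for clone B52. The intervals of the pool and clone B52 overlapped. In clone E9-3 it took 2.02% and stood at rank 12, above ‘Igkv1-133’. The B6 allele gave 85.7% of its reads in the pool (528 of 616), 90.3% in clone 3 (895 of 991), 89.7% in clone 4 (243 of 271), 81.2% in clone 8 (312 of 384) and 93.5% in clone B52 (100 of 107). These 5 libraries overlapped with their neighbours in order. In clone E9-3 the B6 allele gave 13.5% (94 of 694). The 600 Cast reads of this clone were 3.78% of its Cast reads, at rank 6, against 0.0296% to 0.163% of Cast reads in the other clones, where the segment had 7 to 96 Cast reads. The B6 reads of ‘Igkv1-132’ in clone E9-3, at 0.274% of the library, lay within the range of the other clones, from 0.145% to 0.540%. The members with reads were all mostly on B6 in the pool and in clones 3 and B52. In the other clones the prevailing allele was not shared: in clones 4 and 8 ‘Igkv1-135’ was mostly on Cast and the other two mostly on B6, and in clone E9-3 ‘Igkv1-132’ was mostly on Cast and the other two mostly on B6.

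**Figure D2:**
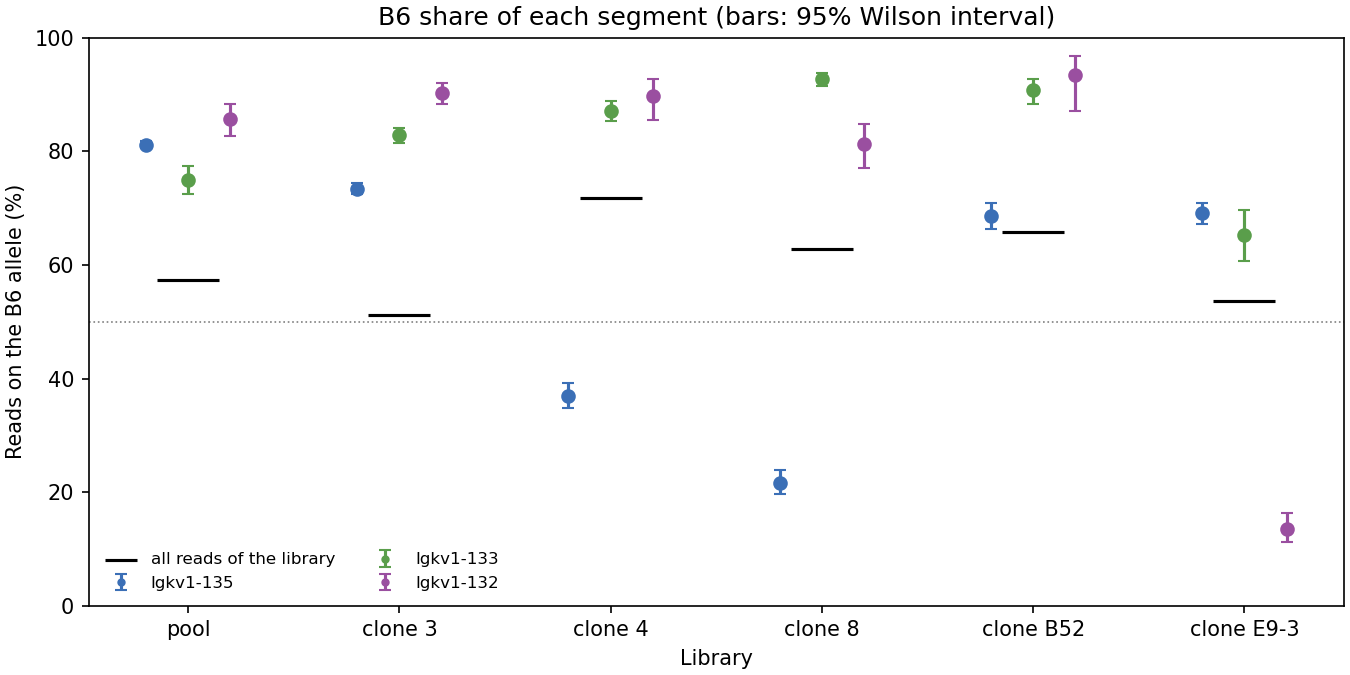
Percent of reads on the B6 allele for ‘Igkv1-135’ (blue), ‘Igkv1-133’ (green) and ‘Igkv1-132’ (purple) in each library at 48 h, with 95% Wilson intervals; black lines give the share over all reads of the library and the dotted line 50%. ‘Igkv1-135’ lies below 50% in clones 4 and 8, ‘Igkv1-132’ lies at 13.5% in clone E9-3, and ‘Igkv1-133’ lies above 65% throughout.

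Whether 1 allele was used more than the other over the clones was tested with edgeR's quasi-likelihood test on the 10 allele counts of the 5 clones, with the clone as a block, the library total as offset and Benjamini-Hochberg adjustment over the 104 segments tested. Of these, 35 had higher B6 counts (33.7%) and 7 higher Cast counts, and the median log2 ratio of B6 to Cast was 1.34. Other scalings moved this split, to 30 higher on B6 and 20 on Cast with TMM factors, 30 and 18 with each allele's own total, and 42 and 23 with DESeq2's median-ratio factors. ‘Igkv1-133’ was higher on B6, with a log2 ratio of 2.61 (SE 0.54, adjusted p = 0.00683) and the same direction in 5 of 5 clones. ‘Igkv1-132’ had a log2 ratio of 2.30 (SE 1.00, unadjusted p = 0.0491, adjusted p = 0.0919) with B6 higher in 4 of 5 clones. Without clone E9-3 its ratio was 3.05 with an adjusted p of 0.00684, so that the result turned on this library. It was also called by DESeq2 on library totals (adjusted p = 0.00346), and without the clone as a block its ratio was -0.26. ‘Igkv1-135’ had a log2 ratio of 0.28 (SE 0.78, adjusted p = 0.799) with B6 higher in 3 of 5 clones. With other scalings the median over all segments fell to between 0.45 and 0.72. The ratio of ‘Igkv1-133’ then lay between 1.70 and 1.95 and stayed called, and that of ‘Igkv1-135’ was below 0, between -0.62 and -0.33. That of ‘Igkv1-132’ lay between 1.34 and 1.54 and was not called. The 5 clones were the samples in this test, and it says nothing of the spread within a clone.

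The B6 share of each clone was set against that of the pool by Fisher's exact test, two-sided, which compares the reads of 2 libraries and not conditions. The test was made wherever both libraries had 10 reads or more of a segment, which gave 485 comparisons, of which 62.9% differed at an adjusted p under 0.05, and so did 13 of the 15 pairs of a member and a clone, all but ‘Igkv1-132’ in clones 4 and 8. Between the repeated 48 h libraries of clone 4 the same test found a difference at 34.5% of 84 segments, and at none of the 3 members, which had exact adjusted p-values of 0.188 to 0.413. With all reads divided by 17.7, the excess variation of this repeat over 73 segments, 7 of the 15 pairs differed, beside 116 of the 483 comparisons over all segments that remained testable. These were ‘Igkv1-135’ in all 5 clones, where its B6 share was lower than in the pool by between 7.73 (clone 3) and 59.5 (clone 8) percentage points, ‘Igkv1-133’ in clone 8, where the share was 17.8 points higher (exact adjusted p = 0.00863), and ‘Igkv1-132’ in clone E9-3, where it was 72.2 points lower (exact adjusted p = 3.02e-09). The adjusted p for ‘Igkv1-135’ was 1.99e-18 in clone 4 and 1.24e-25 in clone 8, and between 0.00738 and 0.0406 in clones 3, B52 and E9-3. In the repeat of clone 4 the B6 share differed by a median of 7.9 points over 84 segments, which the 7.73 points of clone 3 do not exceed. The divisor comes from libraries of 64672 and 10958 reads. Whether it holds at the depth of the larger libraries was not tested. Over 80% of reads were on B6 at 10 of the 18 pairs of a member and a library with at least 10 reads, and at 40.8% of the 598 such pairs over all segments. Over 80% were on Cast at 1 of the 18 pairs, ‘Igkv1-132’ in clone E9-3, and at 11.9% of the pairs over all segments.

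The level of each segment in a clone was set against the pool as a fold of the percent of library, with no test, and a fold of 2 or more was counted. ‘Igkv1-133’ was 2.45-fold (clone B52) to 5.63-fold (clone 4) higher than in the pool, past 2-fold in all 5 clones. Of the 102 segments with a value in every clone, 6 were past 2-fold higher in all 5. ‘Igkv1-132’ was past 2-fold higher in clone 4 (2.18-fold), clone 3 (3.12-fold) and clone E9-3 (10.5-fold). With the time course library of clone 4 at 48 h in its place, the values for clone 4 were 1.66 for ‘Igkv1-132’, 0.429 for ‘Igkv1-135’ and 6.49 for ‘Igkv1-133’, so that the first was no longer past 2-fold and the second was past 2-fold lower. ‘Igkv1-135’ was 4.08-fold lower in clone 8 and 2.04-fold lower in clone B52, and within 2-fold of the pool in the other clones. With TMM-scaled totals its ratio in clone B52 was 0.808, and no longer past 2-fold. Over all 514 segment and clone combinations, 23.9% were past 2-fold higher, against 8 of the 15 pairs of the members, and 31.5% past 2-fold lower, against 2 of the 15. All these folds share the single pool library. In the repeat of clone 4 at 48 h, 29.0% of 100 segments differed 2-fold or more in either direction, and the ratio of the first library to that of the time course was 1.34 for ‘Igkv1-135’, 1.31 for ‘Igkv1-132’ and 0.868 for ‘Igkv1-133’.
Within an allele the folds were not alike. On the B6 allele ‘Igkv1-135’ was 16.8-fold lower in clone 8 and 4.76-fold lower in clone 4 than in the pool, in percent of the reads of that allele. On the Cast allele it was 1.17-fold and 2.91-fold higher in these clones. ‘Igkv1-132’ in clone E9-3 was 58.7-fold higher than in the pool on Cast and 1.78-fold higher on B6. ‘Igkv1-133’ was 2.58-fold to 6.64-fold higher on B6 and 1.12-fold to 4.37-fold higher on Cast over the 5 clones.

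**Figure D3:**
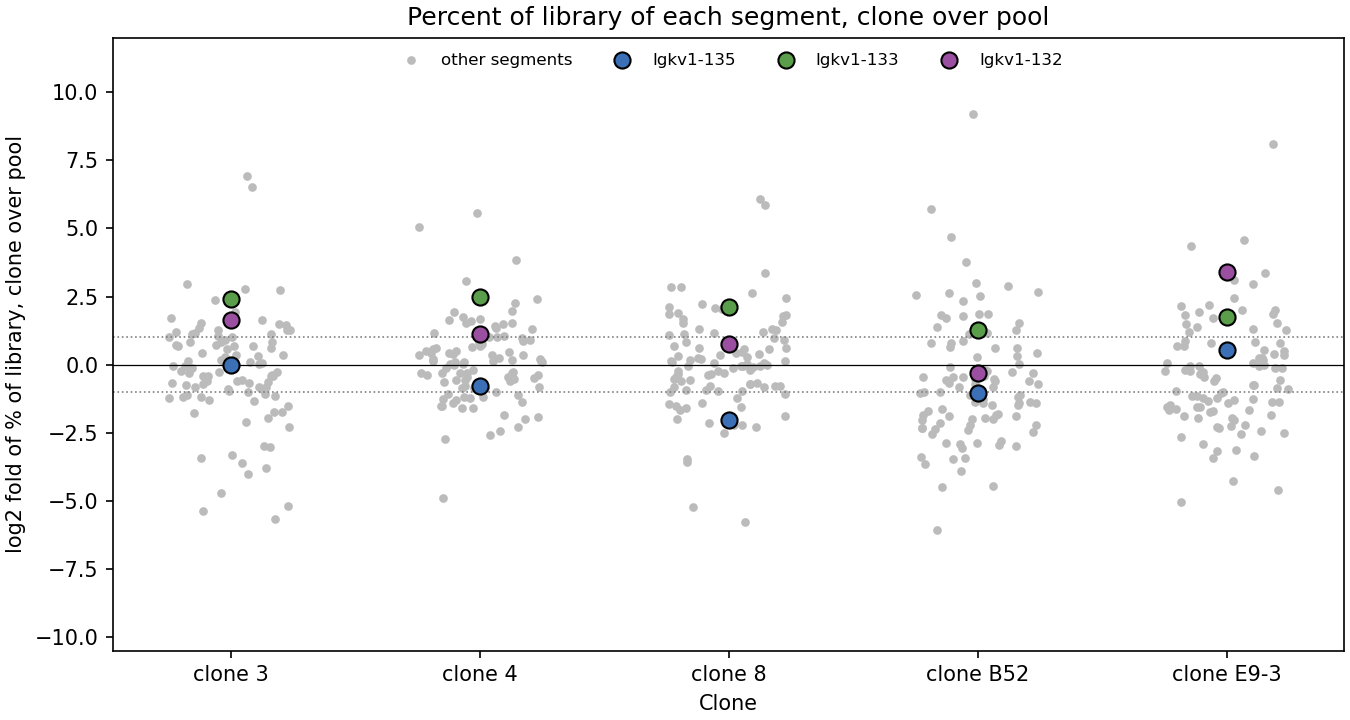
Log2 fold of the percent of library in each clone over the pool for all segments with at least 20 reads over both libraries (grey) and the 3 members with reads (coloured), with dotted lines at 2-fold; a segment under 3 reads was set to 3 reads. ‘Igkv1-133’ lies above the upper line in every clone, and ‘Igkv1-132’ is the highest member in clone E9-3.

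In the time course of clone 4 the first reads of ‘Igkv1-135’ were at 12 h, those of ‘Igkv1-133’ at 24 h and those of ‘Igkv1-132’ at 36 h. At 12 h ‘Igkv1-135’ had 17 reads, all on the Cast allele, and 0 of 1463 B6 reads, which allows a share of up to 0.205% of B6 reads. It had 2 B6 and 26 Cast reads at 24 h, 36 B6 and 156 Cast reads at 36 h, and 71 B6 and 159 Cast reads at 48 h. Its B6 share was 0% at 12 h and 7.14% at 24 h, then 18.8% by 36 h and 30.9% by 48 h, beside 36.9% in the other library of clone 4 at 48 h. By Fisher's exact test the share at 48 h was higher than at 12 h (adjusted p = 0.0431) and than at 36 h (adjusted p = 0.0492), with adjustment over 150 pairs of a segment and 2 times, of which 10.0% differed. These tests take reads as independent and so cover counting error only. With reads divided by the excess variation of the B6 share, as for the pool, no segment differed between times. At 12 and 24 h this division leaves too few reads for a difference of any size in a member to pass. It therefore decides nothing for comparisons that use these libraries. The difference of ‘Igkv1-135’ between 36 and 48 h, with 192 and 230 reads before division, did not pass after it. As a percent of Cast reads ‘Igkv1-135’ stood at 6.20% at 12 h and 6.24% at 48 h, and at 10.8% and 9.23% in between (24 and 36 h). At 24 h it was the most read Cast segment.

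‘Igkv1-133’ had 0 reads at 12 h, which allows a share of up to 0.173% of the library. It had 6 B6 and 8 Cast reads at 24 h, 107 B6 and 15 Cast reads at 36 h, and 217 B6 and 43 Cast reads at 48 h. Its B6 share was 42.9% at 24 h (interval 21.4% to 67.4%), 87.7% at 36 h and 83.5% at 48 h. Over counting error alone the share at 36 h was higher than at 24 h (exact adjusted p = 0.006), while the shares at 36 and 48 h had overlapping intervals. ‘Igkv1-132’ had 0 reads at 12 and 24 h, 29 B6 and 0 Cast reads at 36 h, and 34 B6 reads and 1 Cast read at 48 h. At 36 h the 0 Cast reads allow a share of up to 0.178% of Cast reads. The 0 of 1174 reads at 24 h allow a share of up to 0.256% of the library as 3 reads, and their Wilson interval, which reaches 0.326%, overlaps that of the 0.409% at 36 h (0.285% to 0.587%). ‘Igkv1-131’ was at 0 throughout.

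Between 12 and 48 h all 3 members with reads had a higher percent of library by Fisher's exact test over counting error alone, with adjustment over 74 segments, of which 60.8% were higher. With reads divided by the excess variation of this percentage between the 48 h libraries of clone 4, 1 segment of the 74 passed, Igkv19-93. No member did, but at their levels at 48 h and the depth of the 12 h library no rise from 12 h could have passed after this division. ‘Igkv1-135’ went from 0.979% to 2.10% (exact adjusted p = 0.00177). ‘Igkv1-133’ went from 0% to 2.37%, at least 13.7-fold higher (exact adjusted p = 2.92e-16), and ‘Igkv1-132’ from 0% to 0.319%, at least 1.85-fold higher (exact adjusted p = 0.0173), with 3 reads taken as the floor at 12 h. The most read segment of the time course, Igkv19-93, fell from 59.0% of reads at 12 h to 8.94% at 48 h and was mostly on B6. Among the reads of other segments ‘Igkv1-135’ took 2.38% at 12 h and 2.31% at 48 h, which did not pass the test (exact adjusted p = 0.949). ‘Igkv1-133’ was higher among these reads as well, at 2.61% (exact adjusted p = 1.49e-07), and ‘Igkv1-132’ reached 0.351% (exact adjusted p = 0.238). Among Cast reads alone ‘Igkv1-135’ took 6.20% at 12 h and 6.24% at 48 h (exact adjusted p = 1). Among B6 reads alone it went from 0% to 0.844% (exact adjusted p = 4.98e-05, and 0.0587 without Igkv19-93).

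**Figure D4:**
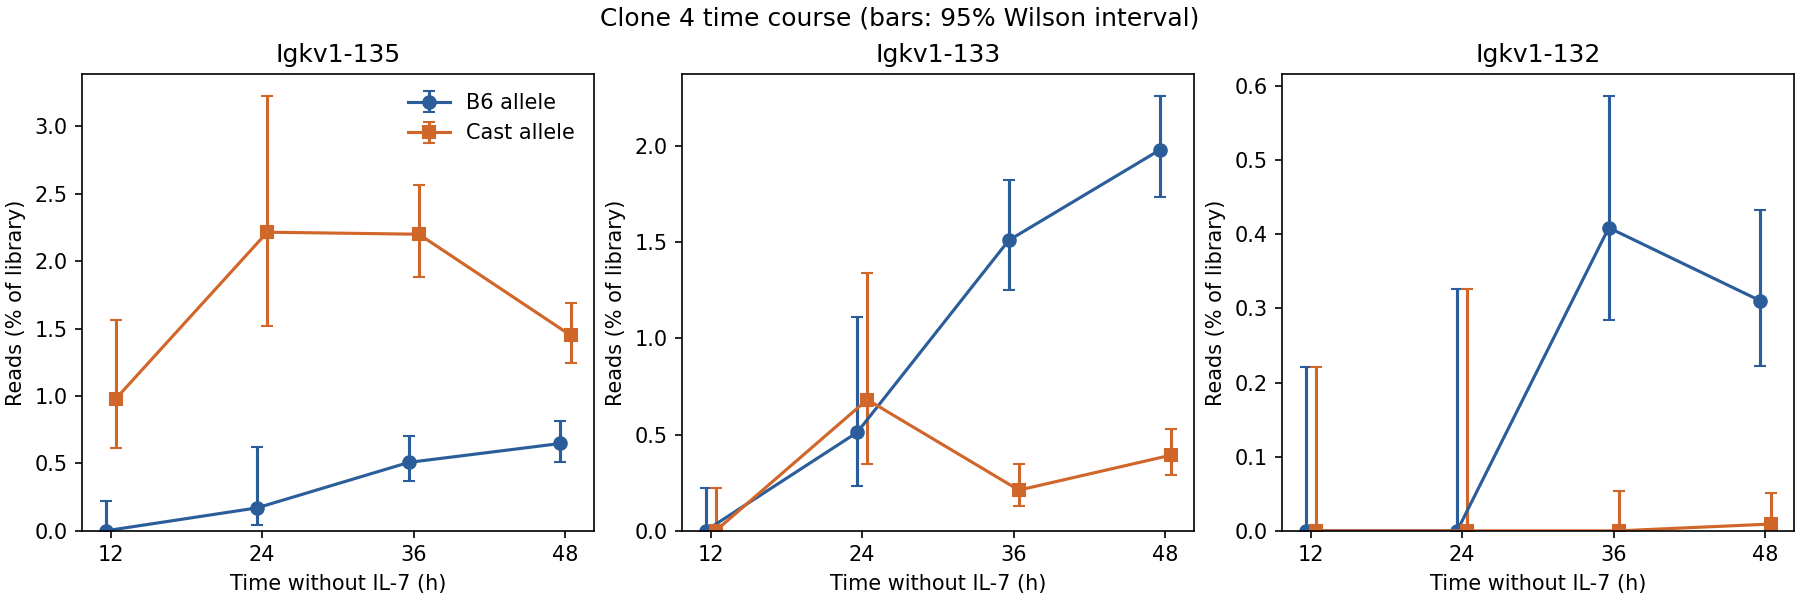
Reads of each member on the B6 (blue circles) and Cast (orange squares) allele in clone 4 after 12, 24, 36 and 48 h without IL-7, in percent of all reads of the library, with 95% Wilson intervals; symbols are shifted sideways and the scale differs between panels. ‘Igkv1-135’ is read on Cast from 12 h on, ‘Igkv1-133’ is first read at 24 h and ‘Igkv1-132’ at 36 h.

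The members were also compared by their profile, the log2 of the percent of library plus 0.01 on each allele in the 6 libraries at 48 h. Over these 12 values, which share libraries and depth, Pearson's r is given as a description. ‘Igkv1-132’ and ‘Igkv1-133’ had r = 0.73, and of the 104 other segments ‘Igkv1-133’ was the one most like ‘Igkv1-132’. ‘Igkv1-135’ was less like either, with r = 0.35 to ‘Igkv1-132’ and 0.13 to ‘Igkv1-133’. Outside the members, the segments most like ‘Igkv1-135’ were Igkv7-33 (0.55), Igkv9-123 (0.51) and Igkv11-125 (0.46), those most like ‘Igkv1-133’ were Igkv4-60 (0.85), Igkv4-75 (0.84) and Igkv3-10 (0.82), and those most like ‘Igkv1-132’ were Igkv4-50 (0.72), Igkv4-63 (0.68) and Igkv11-125 (0.65). The median r over the other segments was 0.03 for ‘Igkv1-135’, 0.43 for ‘Igkv1-133’ and 0.29 for ‘Igkv1-132’.

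Other members of the family and neighbours on the locus are given for comparison, with no test between these lists and the members. Of the 7 other Igkv1 segments, 1 was higher on B6 and 1 on Cast over the clones, and their median log2 ratio of B6 to Cast was -1.09, beside 2.30 over the 3 members tested and 1.34 over all segments. In the pool their median B6 share was 27.8%, against 81.2% for the members and 65.5% over all segments. They were past 2-fold higher than in the pool in 3 of 35 pairs with a clone and past 2-fold lower in 18. Of the 9 other segments with position numbers from that of ‘Igkv9-124’ to that of ‘Igkv2-137’, 6 were tested between the alleles, 1 of them was higher on B6 and 2 on Cast, and the median log2 ratio was -1.84. In the pool their median B6 share was 67.0%. Compared with the pool they were past 2-fold higher in 8 of 26 pairs and past 2-fold lower in 6.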

How the data were processed

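Igκ VJ-seq libraries of a pool, 5 pre-B-cell clones and a time course of clone 4 were analysed. The deposited values are raw read counts per V segment and allele: per the authors, reads were quality-trimmed, mapped by Bowtie2 against a genome holding both the B6 and the Cast sequence, and assigned to segments by HTSeq, with versions not given in the sources used here. From these counts the percent of library, the percent of each allele and the B6 share were computed with Wilson intervals, and a floor of 3 reads was used at 0. The allele test used edgeR 4.0.16 in R 4.3.3, with DESeq2 1.42.0 as an alternative, and was tested on simulated counts of 104 segments, where it called 15 of 15 changes of 4 and 12 of 15 changes of 2 on the log2 scale and 1 of 74 unchanged segments. The simulation gave all segments the same dispersion, which was not fitted to these data. The fraction of changes called may therefore differ in the real counts. Clones paired the alleles as a block because both alleles are read in the same cells. Fisher's exact tests used SciPy 1.17.1, with Benjamini-Hochberg adjustment over all segments tested. Segments entered the comparisons with the pool with at least 10 reads in both libraries (B6 share) or 20 over both (folds), and the time course with 20 over both. All 4 members are named, and for each member with reads the 3 other segments most like it. The members, lists and tests were chosen with earlier results of these data known. Annotation came from GENCODE M21 and sequences from the RefSeq copy of GRCm38.p6. Only the Igκ VJ-seq tables were used; ATAC-seq and nuclear RNA-seq were not analysed here.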

Additional observations from a re-analysis of the deposited data

Results flagged for a closer look

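Among 12 series of values over the 5 clones, 3 held a clone farther from the others than Dixon's 95% critical value for 5 samples, all of them ‘Igkv1-132’ in clone E9-3. Its percent of library was 2.02%, its Cast reads 1.75% of the library and its B6 share 13.5%, with the gap to the nearest clone at 0.763, 0.971 and 0.847 of the range. Chance alone marks about 1 in 20 such series, and these 3 rest on the same 600 Cast reads.

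The B6 share differed between a clone and the pool by Fisher's exact test at 13 of 15 pairs, beside 62.9% over all segments, and at 7 of them with reads divided by the excess variation: ‘Igkv1-135’ in each clone, ‘Igkv1-133’ in clone 8 and ‘Igkv1-132’ in clone E9-3. For ‘Igkv1-135’ the clone minus the pool was -7.73 percentage points for clone 3, -44.2 for clone 4 and -59.5 for clone 8, and -12.5 and -12.1 for clones B52 and E9-3. The value of clone 3 did not exceed the median difference of 7.9 points between the repeated 48 h libraries of clone 4. For ‘Igkv1-133’ it was 7.79 for clone 3, 12.1 for clone 4, 17.8 for clone 8 and 15.7 for clone B52, and -9.78 for clone E9-3. For ‘Igkv1-132’ it was 4.60 for clone 3, 7.74 for clone B52 and -72.2 for clone E9-3. The direction of ‘Igkv1-135’ was the same in 5 of 5 clones, and each of these differences uses the same pool library.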

How the results depend on the processing

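The log2 ratio of B6 to Cast over the clones turned below 0 for ‘Igkv1-135’ with TMM factors (-0.62), each allele's own total (-0.39) and DESeq2's median-ratio factors (-0.33), and ranged from -0.06 (without clone 3) to 0.78 with 1 clone left out. No setting called it. ‘Igkv1-133’ stayed called in every setting, and ranged from 2.32 to 3.00 with 1 clone left out. ‘Igkv1-132’ ranged from 1.86 to 3.05 with 1 clone left out. With TMM factors (1.34), each allele's own total (1.53) and DESeq2's median-ratio factors (1.54) it was lower and not called. It was called without clone E9-3 and with DESeq2 on library totals (2.32, adjusted p = 0.00346). Without the clone as a replicate block its ratio was -0.26, and the calls of the other two were as with the block. Segments higher on B6 numbered 28 to 33 with 1 clone left out, 30 to 42 under the other scalings and 52 with DESeq2 on library totals, where 14 were higher on Cast. Those higher on Cast numbered 18 to 23 under the other scalings.

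With reads divided by the excess variation, 7 of 15 pairs of the B6 share differed from the pool (116 of 483 over all segments). The fold of ‘Igkv1-135’ in clone B52 no longer reached 2-fold without the most abundant segment of each library (0.585) or with TMM-scaled totals (0.808). Members higher at 48 than at 12 h numbered 1 of 3 without Igkv19-93 (24 of 73 segments over all), where ‘Igkv1-135’ moved by -0.0792 percentage points. In settings chosen after the data were seen they numbered 3 of 3 in B6 reads alone (43 of 61 segments), 1 of 3 in B6 reads without Igkv19-93 (23 of 60) and 1 of 2 in Cast reads alone (12 of 40), where ‘Igkv1-132’ had too few reads. With reads divided by the excess variation of the percent of library they numbered 0 of 3, as the depth at 12 h and their levels at 48 h together would give. With the time course library of clone 4, ‘Igkv1-132’ was 1.66-fold over the pool. Depth limits the 12 and 24 h libraries most.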
